A study of Danio rerio with 4 samples.

Results

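Ventricular cardiomyocytes (CMs) are the contractile cells of the ventricle wall, and the ones described here were picked barcode by barcode from single-cell RNA sequencing of zebrafish hearts, on measured values. A barcode was selected by its depth (at least 2500 unique molecular identifiers, UMIs, and 800 genes, with at most 40% of UMIs in the mt- genes), by at least 10 UMIs of the giant sarcomere spring genes ttn.1 and ttn.2 and the ventricular myosin heavy chain genes myh7l and myh7, and by limits on genes of other cells. The limits were fewer than 5 UMIs of the atrial myosin myh6, fewer than 3 of the smooth muscle genes acta2 and tagln, fewer than 3 of the pacemaker channel genes hcn4, scn4ab and cacna1g, and no UMI of the endothelial genes cdh5, spock3, aqp8a.1 and f8. This left 1479 CMs of 30655 deep barcodes, of which 6179 carried the 4 titin and ventricular myosin genes. Because these genes chose the cells, their levels are given only as a description.

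The study followed the growth of the coronary vessels over the ventricle. Wild-type zebrafish of the AB strain were used throughout, with no further allele and no treatment, and the whole heart ventricle was dissociated with enzymes. The library of the initiation stage was made from 25 ventricles (fish of 10 mm, aged 1.5 months), that of establishment from 18 (14 mm, 2 months), that of expansion from 12 (18 mm, 2.5 months) and that of maturation from 5 (28 mm, 8 months). Where 4 values are given in a row, they follow this order of stages. Each stage was 1 pool and 1 library, so stage differences have no replicate check, no p-value is given for them, and stage, pool, body size and age cannot be told apart.

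A CM contracts when calcium enters through the L-type channel and opens the ryanodine receptor of the sarcoplasmic reticulum, after which the pump atp2a2a, held back by phospholamban, returns the calcium. The energy comes from densely packed mitochondria. In the zebrafish, the ventricle starts as a thin primordial wall with trabeculae, and a cortical layer of CMs grows over its surface later, together with the coronary vessels. Larger hearts are reached mainly by CM division in this species, and natriuretic peptides, fetal myosins and metabolic enzymes are among the genes known to differ between young and adult CMs.

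The rule found 295, 335, 566 and 283 CMs in the 4 libraries. They were 4.59% (exact Clopper-Pearson interval 4.09 to 5.13), 6.06% (5.45 to 6.73), 4.79% (4.41 to 5.19) and 4.11% (3.66 to 4.61) of the deep barcodes. All intervals in the text are at 95%, exact binomial for shares and exact Poisson for levels and ratios, and cover counting error only. The share was highest at establishment, while the part of the barcodes with CM genes that passed every limit ranged from 17.5% at establishment to 41.3% at maturation. The limit that removed most cells also differed, since the pacemaker channel genes took establishment from 1127 to 335 barcodes, and the endothelial genes took maturation from 686 to 337. Median depth was 9013, 11145, 5162 and 6460 UMIs, with single cells from 2573 to 32218, and the median number of genes was 1654, 1534, 1110.5 and 1103. The libraries held 115624753 to 161798583 UMIs in all, and 1 barcode sequence occurred among the selected CMs of more than 1 library.

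The label was checked with 10 CM markers that the rule did not use, among them the regulatory myosin light chain myl7, the essential light chain cmlc1 and cardiac troponin T (tnnt2a). Their summed share of UMIs outside the mt- genes had medians of 5.33%, 9.15%, 5.98% and 14.6%. Most selected barcodes thus carried CM markers beyond the rule, but 49 held under 1% of them (12, 12, 18 and 7). Haemoglobin genes made up over 10% of UMIs in 71 CMs (35, 33, 2 and 1), almost all of the earlier stages. Red-cell RNA was also abundant outside cells: in barcodes of up to 100 UMIs, taken here as free RNA, the haemoglobin gene hbba1 stood at 289780 CPM (counts of a gene per 1000000 UMIs) at initiation and 3998 at maturation. In the selected CMs hbba1 stood at 50334 and 1062 CPM.

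Genes of other cell types were low but not absent. The 22 endothelial markers summed to 146, 108, 227 and 200 CPM, against 4526 to 6536 CPM in barcodes with at least 5 UMIs of the endothelial rule genes, and 8, 4, 2 and 3 of them were at 0. The 25 epicardial and fibroblast markers, led by the keratin krt15, summed to 354, 471, 1408 and 1855 CPM, the 16 mural markers summed to 105 to 221 CPM and the 27 leukocyte markers to 14.1 to 194 CPM. myl7 itself was found widely, with a UMI in 99.3% to 100% of the selected CMs and in 12.7%, 91.0%, 92.0% and 98.7% of the endothelial barcodes, every barcode being thinned to 2500 UMIs. From establishment on, most endothelial barcodes thus held a myl7 UMI. The part that free RNA takes in the levels below was not tested, and the free level is given where it moves with a result.

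The cells near the limit of 10 UMIs differed between libraries. At initiation the 10 CMs with 10 to 12 UMIs of the titin and myosin genes held a median of 0.804% of the independent markers and 43.5% haemoglobin, and the 9 barcodes with 7 to 9 UMIs just outside held 0.0738% and 49.6%. At establishment the 31 just inside held 15.2% and the 28 outside 13.8%. The corresponding values were 5.10% (12 barcodes) and 1.04% (32) at expansion, and 13.5% (27) and 4.94% (40) at maturation. Just inside the limit, the barcodes of initiation thus held far more haemoglobin than CM marker RNA, and those of the later stages did not.

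The selected CMs were not of one kind. In some, the 4 titin and myosin genes took 1.5% or more of UMIs, and in others less. These CMs are called titin-rich and titin-poor below. The names stand for the summed share of ttn.1, ttn.2, myh7l and myh7, and not for titin alone. Across the thinned CMs of each library, the rank correlation of the summed share of the 4 genes with that of myl7 was 0.03, -0.41, -0.09 and -0.30. A low share of these genes thus did not go with a high share of myl7 at every stage. The 1.5% line was drawn after the distribution had been seen, and it divides a range, since 175 CMs lie between 1% and 2%. Of the CMs, 57 of 295 were under the line at the first stage (19.3%, 15.0 to 24.3), 161 of 335 at the next (48.1%, 42.6 to 53.6), 90 of 566 at expansion (15.9%, 13 to 19.2) and 230 of 283 at maturation (81.3%, 76.2 to 85.6). These shares rest on genes of the rule and on a line drawn afterwards, and they only describe the cells. Since they differ between the libraries, every stage value for all CMs below mixes titin-rich and titin-poor cells in different parts, and ratios are also given for the titin-rich CMs alone, which numbered 238, 174, 476 and 53.

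**Figure D1:**
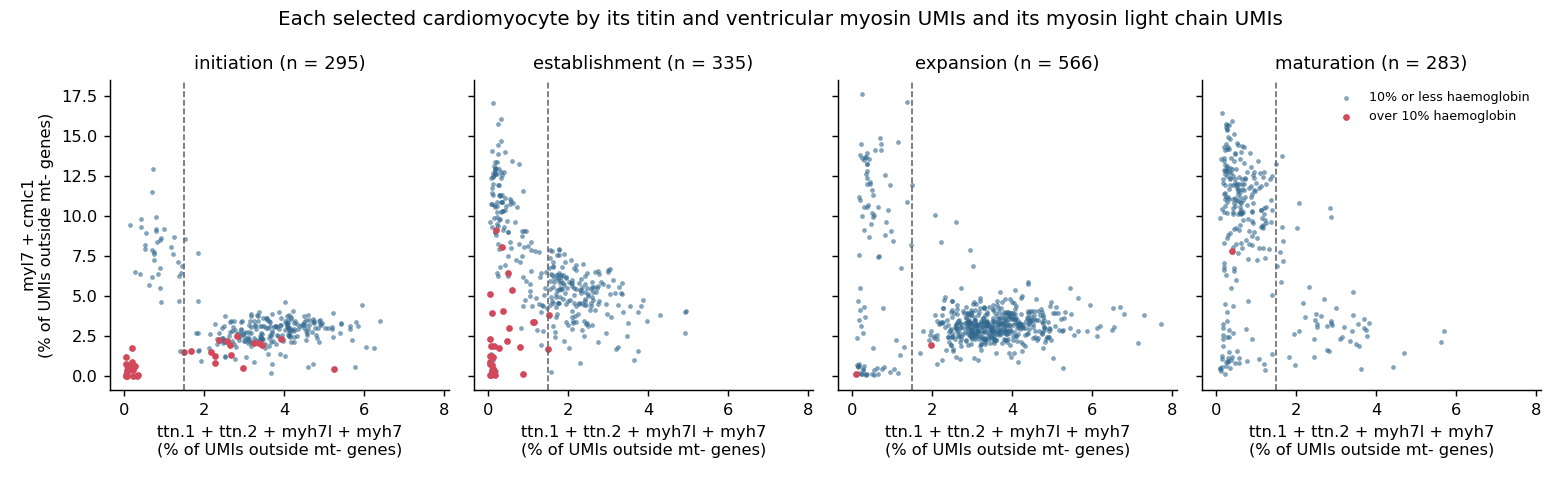
Each point is 1 selected CM, placed by its share of UMIs in ttn.1, ttn.2, myh7l and myh7 (x axis, % of UMIs outside mt- genes) and in myl7 and cmlc1 (y axis, same unit), with 1 panel per stage. Red points are the 71 CMs with over 10% haemoglobin, and the dashed line at 1.5% separates the 941 titin-rich from the 538 titin-poor CMs; at maturation 230 of 283 points lie left of it.

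Median depth was 9163.5, 13770.5, 4952.5 and 7264 UMIs in the titin-rich and 7815, 8037, 5885.5 and 6276.5 in the titin-poor CMs, so neither was the deeper at every stage. The share of all 37 mitochondrial gene names had medians of 35.4%, 25.2%, 39.7% and 46.3% in the titin-rich and 1.88%, 4.13%, 7.71% and 23.0% in the titin-poor CMs. CMs with over 10% haemoglobin were found mainly among the titin-poor at establishment, with 31 of 33 there, and 19 of 35 at initiation. Thus at each stage the titin-rich cells were also the cells rich in mitochondrial transcripts.

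The lists outside the rule differed between these cells in ways that changed with the stage. A gene was tested where it reached 50 CPM in either set and had a UMI in both. Over all tested genes, 45.0%, 41.6%, 22.5% and 26.9% were at least 2-fold higher in the titin-rich CMs, and 12.0%, 2.98%, 30.4% and 17.4% at least 2-fold lower. Of the growth factor signalling genes 14 of 14, 12 of 12, 6 of 21 and 8 of 12 were higher, and at expansion 8 of the 21 were lower (median log2 ratio -0.15). Genes that reached 50 CPM only in the titin-rich CMs entered through the set where they were high, so these counts only describe. Of the intercalated disc and adhesion genes, 16 of 18, 18 of 19, 11 of 23 and 7 of 15 were 2-fold higher in the titin-rich CMs, and of the calcium handling genes 10 of 15, 8 of 15, 9 of 16 and 6 of 16. The nuclear genes of oxidative phosphorylation went another way at maturation, with 0 of 78 higher and 19 lower and a median log2 ratio of -0.83. These comparisons are between cells of 1 library divided on a measured share, and they carry no test. Cells of over 10% haemoglobin were kept in them. Haemoglobin took 28.3% and 14.47% of the titin-poor UMIs at initiation and establishment, and 0.207% at maturation. Of the epicardial and fibroblast genes, 6 of 6, 4 of 4, 16 of 16 and 11 of 11 were at least 2-fold lower in the titin-rich CMs. The part of RNA from red cells and other cells in the list counts was not tested.

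Within each stage, myl7 ran together with other abundant transcripts. After thinning every CM to 2500 UMIs, Spearman's rank correlation of myl7 across the 295, 335, 566 and 283 CMs was 0.73, 0.83, 0.61 and 0.77 with cmlc1, 0.71, 0.80, 0.62 and 0.78 with the adenine nucleotide carrier slc25a5, and 0.72, 0.78, 0.55 and 0.75 with the ATP synthase subunit atp5mc3b. The genes that went most strongly the other way encode heat shock and immediate early proteins, such as the chaperone hsp90aa1.2 (-0.36, -0.59, -0.33 and -0.61). The CMs of a stage share 1 library and a fixed total, so a high share of one gene lowers the others, and these correlations are descriptive.

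The same division appeared over the gene lists. Of 78 nuclear oxidative phosphorylation genes, 75 had a positive rank correlation with myl7 in all 4 libraries, with list medians of 0.29, 0.22, 0.17 and 0.38, and of 25 immediate early and acute stress genes 22 had a negative one in all 4. Over all 1079 genes compared, 497 were positive and 277 negative in all 4 libraries. The titin and myosin genes of the rule ran with the 37 mitochondrial names, with rank correlations of 0.26, 0.69, 0.16 and 0.32, while myl7 ran against them with -0.33, -0.49, -0.39 and -0.56. The total behind both shares still held 25 of the 37 names, so a high share of those names lowers both. The rule also set limits on its own genes and on the mt- genes. These correlations therefore only describe the selected cells.

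Between initiation and maturation, 228 of 1832 genes with at least 50 CPM in either stage were 2-fold or more higher at maturation in all selected CMs (12.4% of the genes tested) and 512 were 2-fold or more lower (27.9%). The total behind CPM is here the UMIs outside the 12 mt- names, and the genes of the rule were left out. Genes that reached 50 CPM at initiation only, or at maturation only, entered through the stage where they were high. The stage counts of gene lists below therefore only describe. In the titin-rich CMs alone the counts were 98 higher (5.33% of 1837) and 297 lower (16.2%), and in the titin-poor 444 higher (28.5% of 1557) and 256 lower (16.4%). The median log2 ratio over all genes was -0.24 in all CMs, -0.30 in the titin-rich and 0.48 in the titin-poor. More genes were lower than higher at maturation in all CMs and in the titin-rich, and the reverse held in the titin-poor.

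The reverse balance moved with red-cell RNA. Of the UMIs of the 57 titin-poor CMs at initiation 28.3% were haemoglobin, against 0.207% at maturation, and 19 of the 57 cells were over 10%. Without the haemoglobin-rich cells, a set chosen after seeing the data that left 38 titin-poor CMs at initiation and 229 at maturation, 168 of 1662 genes were higher (10.1%) and 327 lower (19.7%), with a median log2 ratio of -0.33. The titin-poor CMs thus had more lower than higher genes once these cells were left out, and titin-poor values below are given with and without them. Titin-poor counts below stand against 28.5% higher and 16.4% lower over all genes, and 10.1% and 19.7% without those cells. List counts of the titin-rich and titin-poor CMs leave out genes with no UMI at initiation or at maturation. The shares over all genes keep such genes, so the comparison is not exact. Titin-poor ratios carry no interval and rest on 57 or 38 cells at initiation. Those of genes with few UMIs there give no firm direction.

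Between neighbouring stages fewer genes passed 2-fold in all selected CMs, and the balance of the first 2 steps depended on the scaling. At establishment 105 of 1776 genes were 2-fold higher than at initiation (5.91%) and 163 lower (9.18%). With TMM scaling (trimmed mean of M-values) these became 244 and 96, and with all 37 mitochondrial names left out of the total 64 and 326. At expansion 149 of 1758 genes were higher than at establishment (8.48%) and 106 lower (6.03%), and the other scalings gave 79 and 241, and 452 and 43. The balance of these steps thus turned with the scaling. From expansion to maturation 158 of 1781 genes were higher (8.87%) and 468 lower (26.3%), and the lower genes outnumbered the higher also with TMM (189 and 407) and without the 37 names (160 and 631). Leaving those names out moves every log2 ratio of maturation over initiation by 0.03 in all CMs, by 0.23 in the titin-rich and by 0.26 in the titin-poor. A titin-rich or titin-poor ratio that lies below 0 by less than this has no direction that holds under both totals.

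Genes of the contractile apparatus stood on both sides of 0. Of 30 tested thin and thick filament and Z-disc genes, 6 were 2-fold higher (20%) and 8 lower (26.7%), with a median log2 ratio of 0.28, where 12.4% and 27.9% of all genes were. The higher ones were the light chains myl7 and cmlc1, the actins actc1a and acta1b, the Z-disc gene ldb3b and the actin nucleator lmod2a, and the lower ones included unc45b, smyd1b, obscnb and desma. Cardiac troponin T (tnnt2a) and the tropomyosin tpm4a did not reach 2-fold, with log2 ratios of 0.80 and 0.79. In the titin-rich CMs 2 of 31 were higher and 2 lower (6.45% each, against 5.33% and 16.2% of all genes), with a median of 0.08. Among titin-poor CMs 13 of 24 were higher and none lower, and 2 and 1 of 26 without the haemoglobin-rich cells.

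myl7 stood at 16659, 37948, 25632 and 50335 CPM, with a log2 ratio of maturation over initiation of 1.60 (1.58 to 1.61). In the titin-rich CMs its levels were 16402, 32860, 20571 and 24103 CPM, and the ratio was 0.56 (0.52 to 0.59). Its lowest level was at initiation in either set, and free RNA held 2982 CPM of it there and 30024 CPM at maturation. cmlc1, the essential light chain, had a log2 ratio of 1.54 in all CMs and 0.50 in the titin-rich. The skeletal-type actin acta1b stood at 1056, 2508, 2688 and 3682 CPM, 3.49-fold (3.34 to 3.65) higher at maturation, and in the titin-rich CMs at 919, 1955, 1980 and 1914 CPM, a log2 ratio of 1.06 (0.93 to 1.19). The later stages were close to each other in the titin-rich CMs, and initiation was below them. The cardiac actin actc1a was highest at establishment with 5436 CPM, against 1102 at initiation, 1784 at expansion and 2400 at maturation.

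The myosin chaperone unc45b, which folds the myosin motor during sarcomere assembly, stood at 722, 366, 667 and 102 CPM, 7.08-fold (6.09 to 8.27) lower at maturation than at initiation. Its titin-rich levels of 909, 546, 817 and 379 CPM gave a log2 ratio of -1.26 (-1.52 to -1.01), so the lower level was found there too and was smaller. obscnb, a giant protein linking myofibrils to the reticulum, had log2 ratios of -2.55 and -1.08 in all and in titin-rich CMs. The genes of the rule can only be described: myh7l stood at 14645, 9499, 18112 and 7552 CPM in all CMs and at 17798, 14129, 21677 and 18184 in the titin-rich. myh7 stood at 1815, 795, 741 and 44.7 CPM in all CMs and at 2265, 1208, 898 and 144 in the titin-rich, lowest at maturation in either set.

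The calcium handling genes were on balance lower at maturation in all CMs, and in the titin-rich CMs none passed 2-fold. Of 15 tested genes, 2 were higher (13.3%) and 6 lower (40%) in all CMs (median log2 ratio -0.50), against 12.4% and 27.9% of all genes. In the titin-rich 0 of 17 were higher and 0 lower (median -0.19), against 5.33% and 16.2% of all genes. The titin-poor CMs had 6 of 11 higher and 0 lower (median 1.01), and 0 and 2 of 13 without the haemoglobin-rich cells (median -0.21). The sodium-calcium exchanger slc8a1a, which carries calcium out of the cell after each beat, stood at 1404, 1205, 2160 and 525 CPM in all CMs and at 1759, 1817, 2602 and 1537 in the titin-rich. Its log2 ratio was -1.42 (-1.52 to -1.32) in all and -0.19 (-0.33 to -0.07) in the titin-rich CMs, and in the titin-poor it was 1.58, or 0.96 without the haemoglobin-rich cells, so its direction turned there. The L-type channel subunit cacna1c had log2 ratios of -1.56 and -0.20, and the ryanodine receptor ryr2b of -1.72 and -0.60. Their titin-poor ratios were 0.02 and 0.87, and -1.02 and -0.21 without the haemoglobin-rich cells. In contrast, phospholamban (pln) stood at 2725, 3467, 4187 and 6216 CPM, a log2 ratio of 1.19 (1.15 to 1.23), and 0.67 (0.59 to 0.75) in the titin-rich. Its target, the calcium pump atp2a2a, stood at 943, 945, 1235 and 922 CPM, and its log2 ratios were -0.03 in all and 0.26 in the titin-rich CMs. In the titin-poor CMs the ratio of atp2a2a was 1.81, or 0.85 without the haemoglobin-rich cells, and that of pln 1.50, or 0.52. The pump gene was thus higher at maturation within each profile but not in all CMs.

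Of 6 tested ion channel and gap junction genes 3 were lower at maturation (50%, against 27.9% of all genes). Of 7 in the titin-rich CMs also 3 were lower (42.9%, against 16.2%), and none was higher in either. The 3 genes in all CMs were the voltage-gated channels scn5lab, kcnh6a and kcnq1, and each was over 2-fold lower in the titin-rich CMs too. In all CMs each reached 50 CPM at initiation but not at maturation. They entered through the stage where they were high, so the count only describes. The sodium channel scn5lab, which carries the upstroke of the action potential, stood at 146, 181, 177 and 16.4 CPM, and at 185, 282, 214 and 72.0 CPM in the titin-rich CMs, with log2 ratios of -3.16 (-3.75 to -2.62) and -1.36 (-1.99 to -0.78). The potassium channels of repolarization, kcnh6a and kcnq1, had log2 ratios of -2.51 and -2.83, and of -1.23 and -1.48 in the titin-rich. For kcnq1 the titin-poor ratio was 1.07, or 0.75 without the haemoglobin-rich cells, and for scn5lab -0.98, or -1.58.

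In energy metabolism, genes of one pathway stood on both sides. Of 28 glycolysis, lactate and creatine kinase genes 6 were higher (21.4%) and 7 lower (25%) at maturation, and 2 and 3 of 28 in the titin-rich CMs (7.14% and 10.7%, against 5.33% and 16.2% of all genes). Titin-poor counts were 9 and 2 of 26, and 2 and 5 of 27 without the haemoglobin-rich cells. gapdh, a central glycolytic enzyme, stood at 4482, 9861, 7122 and 11952 CPM, and at 4796, 9821, 7210 and 10057 in the titin-rich, with log2 ratios of 1.42 (1.38 to 1.45) and 1.07 (1.01 to 1.12). It and ak1 were the genes of the list that were over 2-fold higher in both sets. The adenylate kinase ak1, which regenerates ATP from ADP, stood at 673, 2626, 2125 and 5142 CPM, 7.65-fold (7.27 to 8.05) higher, and 616, 2191, 1609 and 2482 CPM in the titin-rich. Its free RNA went from 250 to 5402 CPM over the same stages and was as high as the CMs at maturation.

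Lower at maturation were the glucose transporter slc2a1a (log2 ratio -2.93, titin-rich -1.54) and the muscle glycogen phosphorylase pygmb (-1.37, titin-rich -1.33), though pygmb had a titin-poor ratio of 0.73, or -0.22 without the haemoglobin-rich cells. The muscle creatine kinase ckmb stood at 208, 212, 106 and 51.8 CPM, and at 155, 171, 37.3 and 5.54 in the titin-rich CMs, with a log2 ratio of -4.81 (-7.86 to -2.94) there. The other creatine kinase genes were not lower in all CMs: ckma, the more abundant muscle form, had log2 ratios of 0.55 and 0.06, and the mitochondrial form ckmt2b of 0.58 and -0.10. They were looked up after ckmb had been seen.

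Of 28 genes of fatty acid use, 1 was higher at maturation (3.57%) and 7 lower (25%), and 0 and 4 of 28 in the titin-rich CMs (14.3% lower). These shares of lower genes were close to or below the 27.9% and 16.2% over all genes. The titin-poor CMs had 9 and 2 of 22 (median log2 ratio 0.88), and 0 and 4 without the haemoglobin-rich cells (median -0.17). The pyruvate dehydrogenase kinase pdk2b, which turns pyruvate away from the mitochondrion, stood at 787, 290, 268 and 93.9 CPM, 8.39-fold (7.18 to 9.86) lower at maturation, and at 970, 417, 307 and 213 CPM in the titin-rich, a log2 ratio of -2.18 (-2.53 to -1.86). Its paralog pdk2a was lower as well, with log2 ratios of -1.52 and -1.38, and so was cpt1b, the carnitine transferase that lets fatty acids into the mitochondrion, with -3.10 and -1.67. The titin-poor ratio of pdk2a was 0.22, or -0.80 without the haemoglobin-rich cells. Fatty acid binding protein fabp3 had log2 ratios of 1.34 and 0.42. Both kinases were highest at initiation or expansion and lowest at maturation in either set.

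Of 79 nuclear oxidative phosphorylation genes tested, 8 were 2-fold higher at maturation than at initiation (10.1%) and 3 lower (3.8%), against 12.4% and 27.9% of all genes. Their median log2 ratio was 0.42, where that of all genes was -0.24. The titin-rich CMs had 0 higher and 5 lower of 79 (6.33%, against 16.2%), and their median of -0.26 was close to the -0.30 of all genes and, given the scaling, has no firm direction. In the titin-poor CMs 35 of 79 were higher and 2 lower, with a median of 0.91, and without the haemoglobin-rich cells 3 were higher and 4 lower, with a median of -0.08. From initiation to establishment 78 of 80 were above a log2 ratio of 0 (median 0.80), and from establishment to expansion 0 of 80 were (median -0.75). Over all genes the medians of these steps were -0.01 and 0.08. They moved to -0.245 and 0.459 with all 37 mitochondrial names left out of the total, and to 0.244 and -0.19 with TMM. The list values of these steps are given under the main total only.

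Against the rest of the list, 3 subunits of cytochrome c oxidase, the last complex of the respiratory chain, stood out. cox6a1 went from 286 CPM at initiation to 241, 57.4 and 14.7 CPM at the later stages, 19.4-fold (13.2 to 29.6) lower at maturation, and from 312 to 287, 58.1 and 13.8 CPM in the titin-rich. cox7a2a stood at 433, 418, 222 and 156 CPM (log2 ratio -1.48, titin-rich -2.59) and cox8a at 655, 764, 367 and 195 CPM (-1.75, titin-rich -2.79). For each of the 3, the ratio was lower in the titin-rich CMs than in all CMs. These subunits exist in mammals as a widely expressed and a heart and muscle form. The muscle forms cox6a2, cox7a1 and cox8b, looked up after the first had been seen, had log2 ratios of 0.08, 0.93 and 0.49 in all CMs and of -0.06, 0.15 and -0.05 in the titin-rich.

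**Figure D2:**
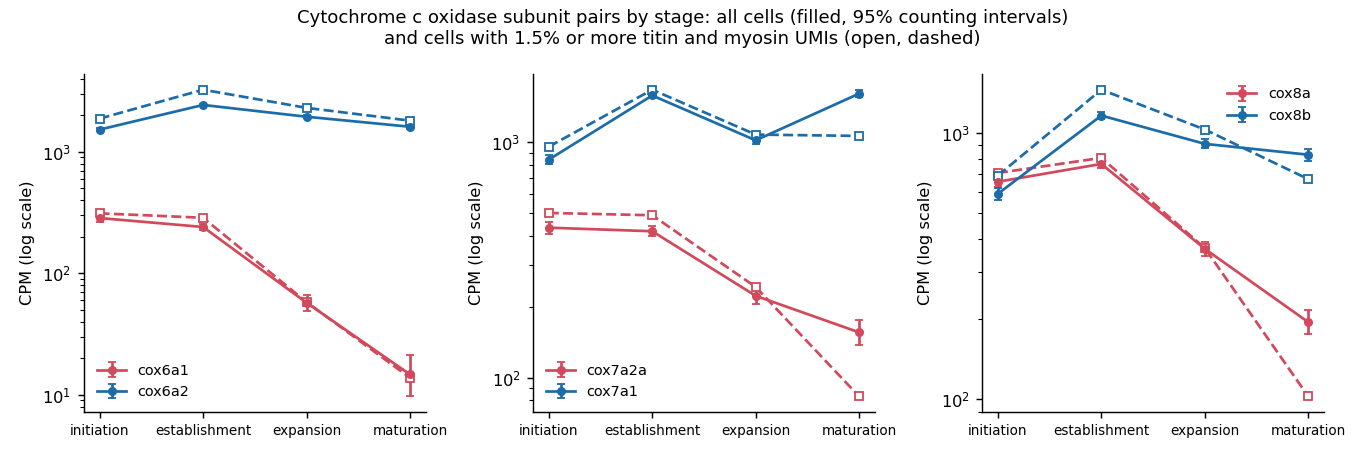
Levels of 3 pairs of cytochrome c oxidase subunit genes by stage (y axis, CPM, log scale), as filled points with 95% counting intervals for all selected CMs and as open points for the titin-rich CMs. cox6a1, cox7a2a and cox8a are lower at maturation than at initiation in both sets (cox6a1 from 286 to 14.7 CPM in all CMs), whereas cox6a2 lies between 1526 and 2434 CPM in all CMs.

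Myoglobin (mb), the oxygen store of muscle, stood at 6475, 16295, 11503 and 22872 CPM, 3.53-fold (3.47 to 3.60) higher at maturation, and at 6255, 13866, 10890 and 14719 CPM in the titin-rich CMs, a log2 ratio of 1.23 (1.19 to 1.28). Its free RNA was 1016 CPM at initiation and 11221 at maturation. Of 8 tested oxygen and hypoxia genes, mb was the single one that was 2-fold higher (12.5%, against 12.4% of all genes), and 3 were lower (37.5%, against 27.9%). In the titin-rich CMs 2 of 10 were higher and 1 lower (20% and 10%, against 5.33% and 16.2%).

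The natriuretic peptides were low at maturation in all CMs and in the titin-rich. nppa, the atrial natriuretic peptide that trabecular CMs also make, stood at 1170, 1583, 810 and 197 CPM, 5.94-fold (5.32 to 6.64) lower at maturation than at initiation, and at 1453, 2219, 983 and 280 CPM in the titin-rich, a log2 ratio of -2.38 (-2.68 to -2.09). nppb stood at 904, 1518, 719 and 175 CPM, and at 1141, 2070, 864 and 252 in the titin-rich. Both peaked at establishment and were lowest at maturation in these sets. In the titin-poor CMs the log2 ratio of nppa was 0.50, or -0.35 without the haemoglobin-rich cells. That of nppb was 2.28, or 1.25, so nppb was not lower at maturation than at initiation there. Over the 14 tested natriuretic, stretch and remodelling genes 2 were higher and 7 lower (50%, against 27.9% of all genes), and 1 and 4 of 14 in the titin-rich (28.6% lower, against 16.2%). Among titin-poor CMs the counts were 5 and 2 of 12, and 3 and 4 of 15 without the haemoglobin-rich cells.

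The share of cells with a UMI went with these levels. After thinning to 2500 UMIs, nppa was found in 73.2% (67.8 to 78.2), 72.8% (67.7 to 77.5), 64.0% (59.9 to 67.9) and 31.1% (25.8 to 36.8) of CMs, against 1.65% to 3.67% of endothelial barcodes thinned alike. Without thinning the shares were 84.4%, 89.0%, 80.6% and 56.5%. nppb was found in 59.0%, 66.6%, 58.0% and 26.1% of CMs and 13.2%, 14.2%, 7.18% and 6.18% of endothelial barcodes. At each stage the CM share was well above that of the endothelial barcodes, so the peptide genes were not at the background level.

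Of 17 tested cardiac transcription factors, 1 was higher at maturation and 4 lower (23.5%, against 27.9% of all genes), and 0 and 2 of 16 in the titin-rich CMs (12.5% lower, against 16.2%). The list thus had no more lower genes than the rest. In titin-poor CMs the counts were 6 and 0 of 13, and 2 and 1 of 14 without the haemoglobin-rich cells. tbx5a, a T-box factor that the study used for trabecular CMs, stood at 195, 66.4, 104 and 102 CPM in all CMs, a log2 ratio of -0.94 (-1.19 to -0.69), and at 232, 95.2, 121 and 58.2 in the titin-rich, where the ratio was -2.00 (-2.70 to -1.37). It was found in 32.5% (27.2 to 38.2), 11.3% (8.15 to 15.2), 23.3% (19.9 to 27.0) and 19.1% (14.7 to 24.2) of thinned CMs and in 0.165%, 0.139%, 0.562% and 1.77% of endothelial barcodes. Without thinning it was found in 65.4%, 40.3%, 40.1% and 42.4% of CMs. In all CMs the T-box gene thus was highest at initiation by either measure. Its titin-poor log2 ratio was 0.90, or 0.03 without the haemoglobin-rich cells, so the lower level at maturation was not found there. nkx2.5, an early cardiac homeobox factor, stood at 37.3, 51.3, 44.5 and 112 CPM, with a log2 ratio of 1.59 (1.23 to 1.95) in all CMs and 0.37 (-0.51 to 1.17) in the titin-rich, an interval that includes 0. mef2d, a muscle enhancer factor, had log2 ratios of -1.85 and -1.42, and in the titin-poor CMs of 0.30, or 0.23 without the haemoglobin-rich cells. The zinc finger factor gata6 was found in 10.2%, 6.87%, 14.8% and 12.0% of thinned CMs, within counting error of the 11.1%, 8.41%, 13.2% and 11.5% of endothelial barcodes, and is not read further.

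**Figure D3:**
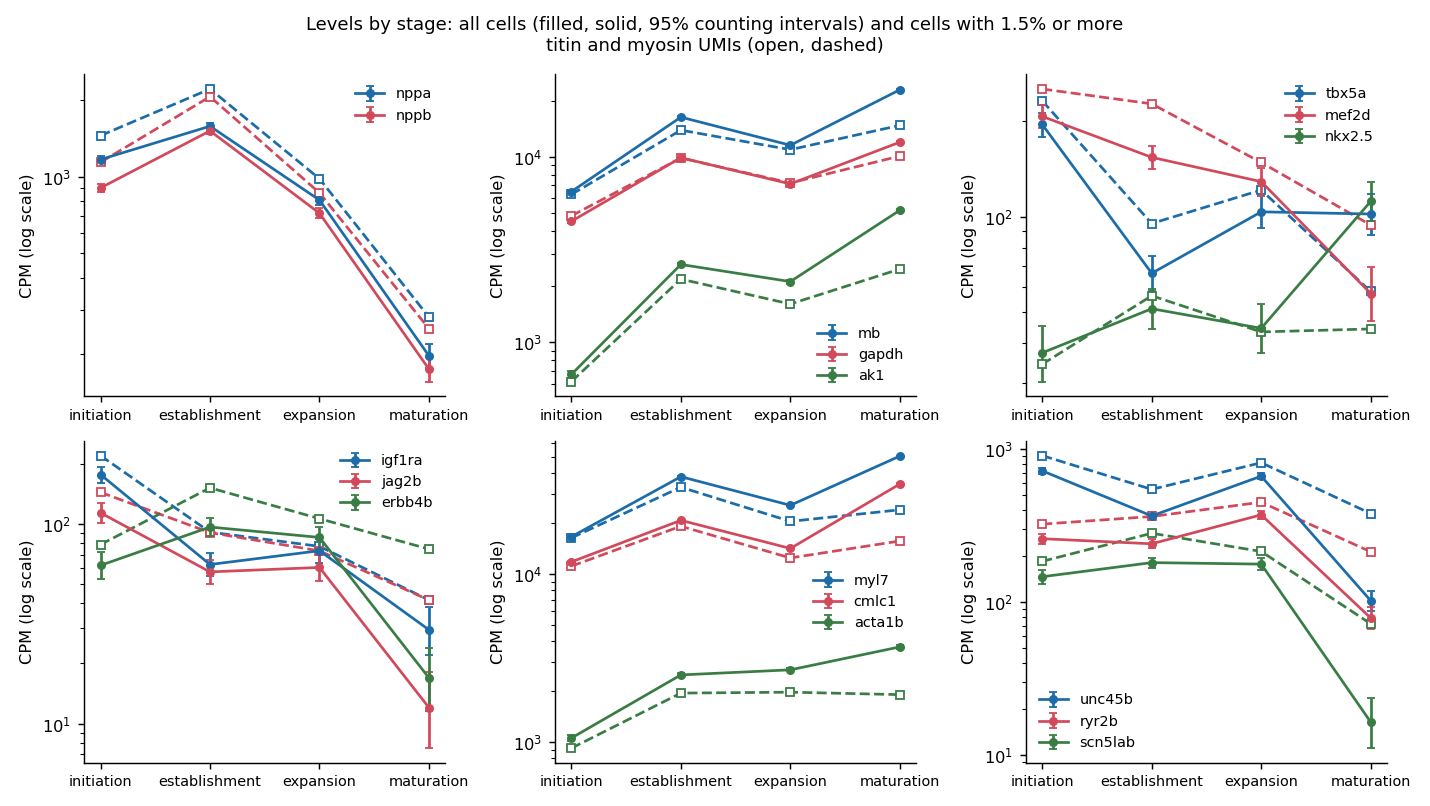
Levels of single genes by stage (x axis) in CPM (y axis, log scale), as filled points with 95% counting intervals for all selected CMs and as open points for the titin-rich CMs. nppa is lowest at maturation in both sets (197 and 280 CPM), and erbb4b is low at maturation in all CMs (16.9 CPM) but near its initiation level in the titin-rich (74.8 against 78.8 CPM).

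Among growth factor and coronary signalling genes 1 of 13 tested was 2-fold higher at maturation and 10 were lower, with a median log2 ratio of -1.68, against 12.4% and 27.9% of all genes tested. The 13 were those of 57 that reached 50 CPM. In all CMs igf1ra, vegfaa and erbb4b did so at initiation but not at maturation. They entered through the stage where they were high, so the count only describes. In the titin-rich CMs 1 of 16 was higher and 8 lower, with a median of -0.90, against 5.33% and 16.2%. Few of the list reached 50 CPM in the titin-poor CMs, where 1 of 3 was higher and 1 lower, and 2 and 1 of 5 without the haemoglobin-rich cells. The insulin-like growth factor receptor igf1ra stood at 177, 62.6, 73.4 and 29.5 CPM, 6.0-fold (4.52 to 8.11) lower at maturation, and at 220, 91.0, 77.2 and 41.5 in the titin-rich, a log2 ratio of -2.40 (-3.25 to -1.67). The Notch ligand jag2b had log2 ratios of -3.24 and -1.79. Both were highest at initiation in either set. Their titin-poor ratios were 0.57 and 1.42, and -0.10 and 0.23 without the haemoglobin-rich cells, with few cells at initiation and no interval. igf1ra was found in 30.8%, 14.0%, 11.8% and 3.53% of thinned CMs and in 15.6%, 9.01%, 21.4% and 18.4% of endothelial barcodes, so from expansion on its share was the higher in the endothelial barcodes.

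vegfaa, the growth factor that guides coronary endothelial cells, stood at 146, 107, 137 and 45.8 CPM, and at 178, 153, 152 and 105 CPM in the titin-rich CMs, with log2 ratios of -1.68 (-2.03 to -1.33) and -0.76 (-1.28 to -0.28). It was found in 25.4% (20.6 to 30.8), 14.9% (11.3 to 19.2), 24.7% (21.2 to 28.5) and 8.48% (5.51 to 12.4) of thinned CMs, and in 2.18% to 3.30% of endothelial barcodes. The share without thinning was 55.9%, 43.3%, 40.8% and 14.1%. angpt1, a ligand of the endothelial Tie2 receptor, stood at 73.8, 76.6, 116 and 49.7 CPM and was found in 14.2%, 15.5%, 20.3% and 7.07% of CMs and 0.743% to 2.21% of endothelial barcodes. Both ligands were found in a larger share of CMs than of endothelial barcodes, and were lowest at maturation in all CMs. The order was not the same within each profile. The titin-poor ratio of vegfaa was 0.13, or -0.96 without the haemoglobin-rich cells. For angpt1 the ratio was 0.41 in the titin-rich CMs and 2.16 in the titin-poor, or 0.98 without the haemoglobin-rich cells.

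The neuregulin receptor erbb4b, which drives trabeculation with its partner erbb2, differed between the sets. It stood at 62.0, 96.5, 85.6 and 16.9 CPM in all CMs, a log2 ratio of -1.87 (-2.48 to -1.31), and at 78.8, 152, 106 and 74.8 in the titin-rich, where the ratio was -0.08 (-0.72 to 0.52). In the titin-poor CMs it had 0 CPM at initiation and 2.72 at maturation. It was found in 14.6%, 17.6%, 13.4% and 1.77% of thinned CMs and in 0.494%, 1.35%, 11.3% and 13.7% of endothelial barcodes. erbb2 had log2 ratios of -1.96 and -1.03.

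Of 33 immediate early and acute stress genes 2 were higher at maturation (6.06%) and 17 lower (51.5%, against 27.9% of all genes; median log2 ratio -1.01), and 0 and 5 of 33 in the titin-rich CMs (15.2% lower, against 16.2%; median -0.09). Of 29 genes tested in titin-poor CMs, 10 were higher and 2 lower (median 0.52), and 3 and 5 without the haemoglobin-rich cells (median -0.07). fosab, a subunit of the AP-1 factor, stood at 1636, 2018, 2327 and 719 CPM in all CMs and at 2002, 2896, 2708 and 2005 in the titin-rich, with log2 ratios of -1.19 (-1.28 to -1.10) and 0.00 (-0.11 to 0.12). Its free RNA was 346 CPM at initiation and 1100 at maturation. The early response factor egr1 had log2 ratios of -1.82 and -0.81, and the cytokine signalling inhibitor socs3b of -1.64 and -2.51. Titin-poor ratios of fosab, egr1 and socs3b were 0.48, 0.77 and 1.66, and 0.01, -0.03 and 0.70 without the haemoglobin-rich cells.

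The heat shock and chaperone list had 1 higher and 9 lower genes of 32 (median log2 ratio -0.64), and its 28.1% of lower genes was close to the 27.9% over all genes. In the titin-rich CMs 0 and 7 of 31 were (22.6% lower, against 16.2%; median -0.58). The titin-poor CMs had 8 and 1 of 28 (median 0.27), and 10 and 5 without the haemoglobin-rich cells (median 0.52), so the list's median was above 0 there in either case. The constitutive chaperone hspa8 stood at 1354, 1347, 878 and 636 CPM, and at 1404, 1345, 831 and 524 in the titin-rich, with log2 ratios of -1.09 (-1.19 to -0.99) and -1.42 (-1.64 to -1.21). fkbp4, a cochaperone of Hsp90, had log2 ratios of -2.40 and -1.95. The muscle form of Hsp90, hsp90aa1.1, which works with unc45b on myosin, stood at 2291, 1393, 2168 and 426 CPM (log2 ratio -2.43, titin-rich -0.66), and bag3, which clears damaged filament proteins, at 1423, 886, 1488 and 321 CPM (-2.15, titin-rich -0.56). Both were lower in all CMs far more than in the titin-rich. The titin-poor ratio was 0.91 for bag3 and 0.61 for fkbp4, and 0.46 and 2.01 without the haemoglobin-rich cells. The small heat shock protein hspb6 went the other way, with log2 ratios of 1.37 and 0.42.

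Of 19 tested intercalated disc and adhesion genes none was higher at maturation and 13 were lower (68.4%, against 27.9% of all genes; median log2 ratio -1.28), and 0 and 3 of 19 in the titin-rich CMs (15.8% lower, against 16.2%; median -0.30). The titin-poor CMs had 3 and 0 of 6 (median 0.84), and 1 and 3 of 9 without the haemoglobin-rich cells (median -0.13). cdh2, the cadherin that joins CMs end to end, stood at 152, 114, 125 and 61.1 CPM, with log2 ratios of -1.32 and -1.01. nrap, which anchors actin at the disc, had -1.70 and -0.54. The adhesion molecule alcama, found at CM borders in zebrafish, stood at 296, 189, 257 and 88.4 CPM and at 371, 286, 312 and 335 in the titin-rich, with log2 ratios of -1.74 (-2.00 to -1.50) and -0.15 (-0.44 to 0.13). Its low level at maturation was therefore not found within the titin-rich profile. The titin-poor ratios of cdh2, nrap and alcama were 0.67, 1.25 and 0.64, and 0.14, 1.07 and -0.39 without the haemoglobin-rich cells.

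**Figure D4:**
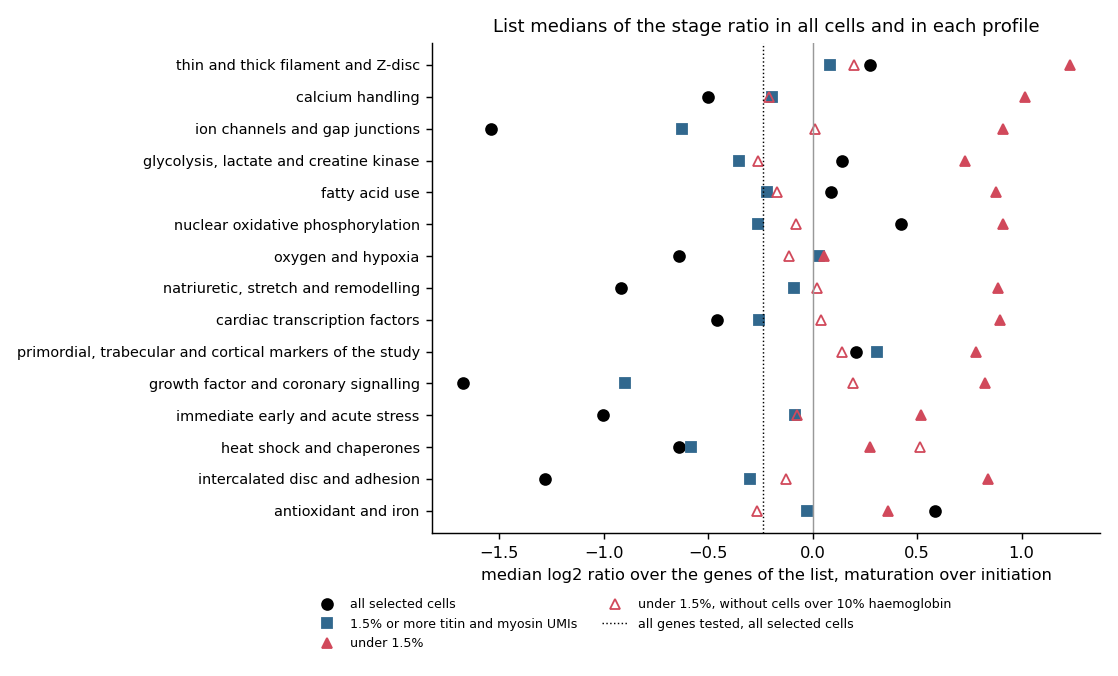
Median log2 ratio of maturation over initiation for each gene list (x axis), in all selected CMs (circles), in the titin-rich (squares), in the titin-poor (filled triangles) and in the titin-poor without cells over 10% haemoglobin (open triangles), with the median of all genes tested in all CMs as a dotted line at -0.24. The squares lie nearer to 0 than the circles for calcium handling (-0.19 against -0.50) and intercalated disc genes (-0.30 against -1.28), and for calcium handling the filled triangle is at 1.01 and the open one at -0.21.

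Few CMs carried transcripts of dividing cells. At least 2 UMIs of 10 mitosis genes were found, after thinning, in 1, 2 and 1 CMs at the first 3 stages (0.339%, 0.597% and 0.177%) and in 0 of 283 at maturation. That 0 allows a share of up to 1.06% by the limit of 3 of 283 cells, and of up to 1.295% by the exact binomial interval. Without thinning they were found in 4, 4, 1 and 2 CMs (1.36%, 1.19%, 0.177% and 0.707%). Among the thinned endothelial barcodes the shares were 0.658%, 0.0929%, 0.0843% and 0.0736%. A difference between the stages was not detectable at this depth. The cyclin ccnd2a, which acts at entry into the cycle and has other uses in muscle, stood at 118, 27.4, 162 and 231 CPM.

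Among the single genes with the largest ratios, the Notch target her15.1 stood at 182, 138, 48.0 and 2.18 CPM, 83.6-fold (32.4 to 308) lower at maturation, and at 232, 188, 58.1 and 5.54 in the titin-rich, a log2 ratio of -5.39 (-8.43 to -3.52). Its level in free RNA was 40.2 CPM at initiation and 2.13 at maturation. The detoxifying enzyme cyp1a had a log2 ratio of -5.84 and a titin-rich ratio of -3.64, and its free RNA at 131 CPM was close to the 156 CPM of the CMs at initiation. The small nuclear RNA rn7sk, which holds back transcription elongation, stood at 241, 304, 158 and 17.5 CPM (log2 ratio -3.79, titin-rich -3.57). Of the 10 genes with the smallest ratios, hemgn, aqp1a.1, kel, rhag and smim1 are known from red cells, and cox6a1 and RASSF5 completed the number.

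At the other end, the protease gene ctrb1 stood at 3.42, 10.7, 55.7 and 245 CPM, a log2 ratio of 6.16 (5.22 to 7.30), and at 3.87, 11.8, 69.0 and 99.7 in the titin-rich. ctrb1 is known as a pancreatic enzyme, and its free RNA was 0.789 CPM at initiation and 123 at maturation. The cystine transporter slc7a11 stood at 0.760, 9.14, 2.78 and 65.5 CPM, with free RNA of 3.95 and 9.23 CPM at the first and last stage. The heme-degrading enzyme hmox1a stood at 0.760, 0.806, 4.87 and 84.0 CPM, with 0 CPM in the titin-rich CMs of maturation and 85.4 CPM in the free RNA. mmp13a, a secreted collagenase, had 0 CPM at initiation and 67.7 at maturation, and 94.6 CPM in the free RNA. For the last genes the free level is at or above that of the CMs, whereas for slc7a11 it is below. The others of the 10 largest ratios were antxr2a, c4, pcdh1b, fhl3a, srgn and gfpt2, each at up to 4.18 CPM at initiation.

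Of the 25 epicardial and fibroblast genes 9 reached 50 CPM at initiation or maturation in all CMs. All 9 were 2-fold higher at maturation, against 12.4% of all genes, and 1 of them reached 50 CPM in the titin-rich CMs. Genes that reached 50 CPM at maturation only entered through the stage where they were high, so this count only describes. krt15 stood at 108, 205, 490 and 533 CPM in all CMs, at 8.22 to 115 in the titin-rich, and at 862 and 1848 CPM in the free RNA of the first and last stage. Fibronectin (fn1b) had a log2 ratio of 2.45 in all CMs and -1.07 (-6.48 to 1.69) in the titin-rich. The levels in all CMs were thus carried mainly by the titin-poor CMs, which went from 19.3% of the CMs at initiation to 81.3% at maturation. In the titin-poor CMs alone 3 of 10 genes of the list were higher at maturation (30%, against 28.5% of all genes). Without the haemoglobin-rich cells 6 of 12 were (50%, against 10.1%). The titin-poor log2 ratio of krt15 was 0.45, or -0.58 without those cells.

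The genes that varied most from cell to cell, after thinning to 2500 UMIs, included genes of blood, of the contractile and energy apparatus and of chaperones. Haemoglobin genes led, with a variance over mean of 484 for hbba1 (mean of the 4 libraries), where the median over 295 ranked genes was 1.62 to 1.80 per library. The contractile and energy genes myl7 (35.6), cmlc1 (20.8), mb (15.4), slc25a5 (13.7) and acta1b (8.36) were among the first 15, as were the inducible chaperones hsp90aa1.2 (12.1), hsp70.3 (8.63) and hsp70l (8.61). The iron store gene fthl27 varied most at maturation, with 38.95 there against 2.52 to 4.64 at the earlier stages. The remaining members of the first 15 were si:ch211-5k11.8, CR383676.1, zgc:158463, the actin-binding peptide tmsb4x and the nucleoside kinase nme2b.2.

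Of CMs that passed all other limits, those with 3 or more UMIs of the pacemaker channel genes numbered 311, 768, 373 and 28, and so exceeded the selected CMs at the first 2 stages. They were deeper, with median UMIs of 12208, 17149.5, 8141 and 9684.5, so a limit on a count of UMIs divides cells by depth as well. Sums per library and class were compared with edgeR's quasi-likelihood test with the library as a block, which treats the libraries as replicates of the class difference. Of 10759 genes 94 were higher in the selected CMs (0.874%) and 21 lower (0.195%) at a Benjamini-Hochberg adjusted p of at most 0.05. For the classes, the total behind CPM is all UMIs of the genes in the table.

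The lower genes included regulators of the cytoskeleton and adhesion. kif26ba, a kinesin family member, stood at 20.4, 9.32, 6.61 and 21.4 CPM in the selected CMs and at 85.9, 34.3, 39.6 and 84.9 CPM in the others, lower in each library. Its log2 ratio of selected over other CMs was -1.87 (SE 0.21, edgeR quasi-likelihood test, adjusted p = 0.0022). The formin fhod3b, which assembles actin in the cardiac sarcomere, was lower by a log2 ratio of -2.02 (SE 0.29, edgeR, adjusted p = 0.0043), and the adhesion protein flrt2 by -2.35 (SE 0.43, edgeR, adjusted p = 0.021). Also lower in all 4 libraries were tenm3, bcam, ddr1, znrf3, frem2b, tnika and kalrna, with log2 ratios from -1.85 to -1.37, and the actin-binding xirp2a at -1.08 (edgeR, adjusted p = 0.017). Among them bcam and ddr1 are receptors for laminin and collagen, tenm3 is an adhesion protein of the teneurin family, frem2b belongs to the basement membrane, tnika is a kinase and znrf3 an inhibitor of Wnt receptors.

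**Figure D5:**
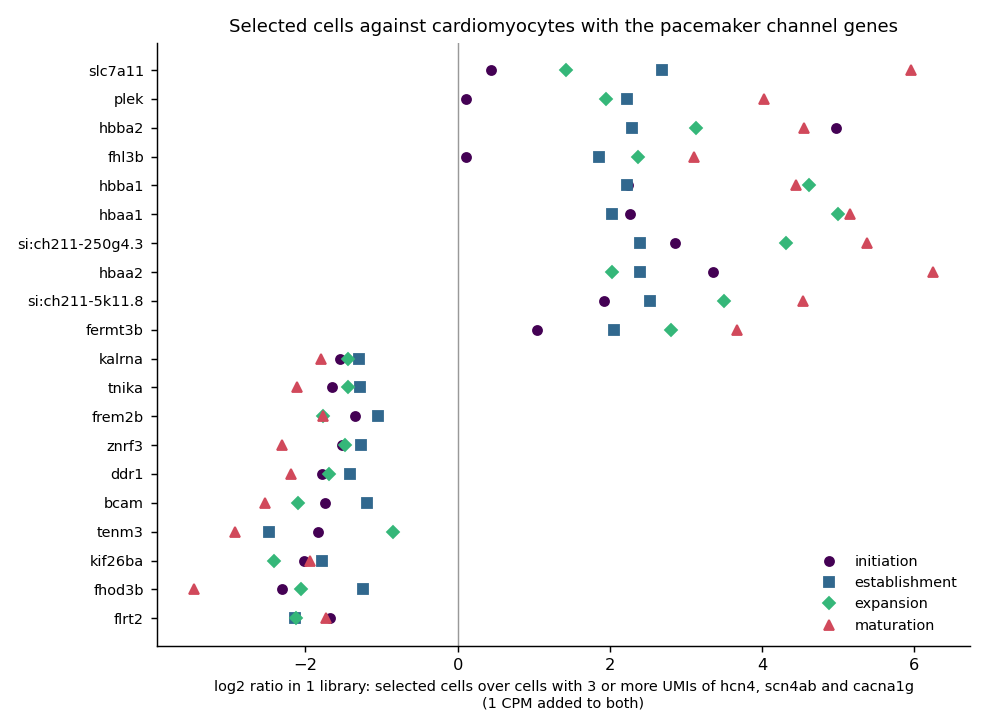
Log2 ratio of selected CMs over CMs with the pacemaker channel genes (x axis, 1 CPM added to both) for the genes of largest and smallest ratio, with 1 point per library. The points of kif26ba, fhod3b and flrt2 lie left of 0 in all 4 libraries, and those of slc7a11 and the haemoglobin genes right of it.

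Among the 94 higher genes were 12 of the 18 tested red-cell and thrombocyte genes, such as hbba1 with a log2 ratio of 3.51 (SE 0.46, edgeR, adjusted p = 0.0027), at 46654, 37357, 1647 and 990 CPM against 9889, 8011, 66.3 and 44.3. Without the cells of over 10% haemoglobin or under 1% independent markers in both classes, 0 of 12 of these genes were higher, and hbba1 had a log2 ratio of 0.78 (edgeR, adjusted p = 0.15). Of all 10298 genes tested there, 140 were higher and 63 lower. All the genes named above as lower kept an adjusted p of at most 0.05 there. slc7a11 was also higher, at 0.705, 8.33, 2.52 and 61.1 CPM against 0.256, 0.456, 0.317 and 0 CPM, with a log2 ratio of 4.20 (SE 0.49, edgeR, adjusted p = 0.0022) and of 4.16 without those cells. The blood-cell adaptors plek (4.12, edgeR, adjusted p = 0.011) and fermt3b (3.14, edgeR, adjusted p = 0.0067) went with it. After the removal 9 of 21 epicardial genes and 4 of 6 leukocyte genes were higher too, and the part of RNA from other cells in these calls was not tested.

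None of 82 oxidative phosphorylation genes passed the test between these classes (median log2 ratio 0.59, against 0.05 over all genes), and none of 15 ion channel genes did. Without the maturation library, whose other class held 28 CMs, the test called 608 genes higher and 429 lower. Without establishment it called 4 and 1, without initiation 28 and 1, and without the library block 0 and 0 (184 and 192 at an unadjusted p of at most 0.05). The number of calls thus rests on single libraries, and the genes named were chosen for 1 sign in all 4.

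The cells with 3 or more UMIs of acta2 and tagln numbered 105, 24 and 71 at the first 3 stages and 8 at maturation, which was not used. Their median share of myl7 and cmlc1 was 0.00771%, 4.41% and 0.184%, so at initiation and expansion most of them were not CMs by these markers. Of 9667 genes 529 were higher in the selected CMs (5.47%) and 746 lower (7.72%) by edgeR's quasi-likelihood test. Lower were 12 of 14 mural genes, with myh11a, the smooth muscle myosin, at 1.76, 0 and 5.35 CPM against 2976, 196 and 1836 CPM, a log2 ratio of -8.94 (SE 0.74, edgeR, adjusted p = 0.0038). The pericyte gene rgs5a (-9.21) and the elastin gene elnb (-9.53) were lower likewise.

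Higher in the selected CMs were 64 of 81 oxidative phosphorylation genes and 24 of 40 genes of fatty acid use. bmp10l, whose mammalian relative BMP10 is a growth factor of trabecular CMs, stood at 37.7, 28.4 and 21.7 CPM against 0, 2.72 and 0, a log2 ratio of 6.22 (SE 0.90, edgeR, adjusted p = 0.012). In single cells it was found in 6.78%, 4.48%, 5.48% and 5.65% of the thinned CMs and in at most 0.294% of endothelial barcodes. The atypical cadherin cdh13 (log2 ratio 5.35), the actin nucleator lmod2a (4.91), the calcium store protein casq1b (4.11) and the Z-disc protein myoz2b (3.33) were higher in all 3 libraries. Among cells with at least 1% of the independent markers in both classes, 2 libraries were left. The acta2 and tagln class then held 20 cells at establishment and 19 at expansion. Of 7333 genes tested there, 211 were higher and 166 lower. Higher were 48 of 80 oxidative phosphorylation genes but only 7 of 40 genes of fatty acid use, and 6 of 10 mural genes were lower. With so few libraries and cells these counts have little support. tbx5a had a log2 ratio of 3.26 (edgeR, adjusted p = 0.036) and an adjusted p of 0.056 in that subset by edgeR. Leaving out 1 library gave 38 to 1093 higher and 316 to 924 lower genes, the lowest without expansion.

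CMs with 5 or more UMIs of myh6 passed the other limits in 35 barcodes at initiation and in 0, 1 and 2 at the later stages, so they could be compared in 1 library only, with no test. Of 2494 genes at 50 CPM or more in either class, 940 were 2-fold or more higher in the myh6 cells and 119 in the selected CMs. A gene with UMIs in only 1 of the classes has no ratio, so it is among the 2494 but in neither count. The troponin C gene tnnc1b was at 1321 CPM in the myh6 cells and 1.57 in the selected CMs, and the potassium channel kcnj5, of the atrial acetylcholine-gated current, at 200.1 and 3.53. The adhesion molecule chl1a was at 438 and 0.392 CPM. In the other direction, the troponin I gene tnni4a stood at 1582 CPM in the selected CMs and 6.35 in the myh6 cells, and the mitochondrial creatine kinase ckmt2a at 150.5 and 3.18. The troponin genes thus stood far apart in opposite directions between these classes at initiation.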

How the data were processed

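Single-cell libraries of pooled zebrafish ventricles (10x Chromium 3' v3.1) were used as deposited: the authors counted UMIs per gene and barcode with Cell Ranger against GRCz11 with the Lawson annotation v4.3.2 and deposited raw counts of all barcodes, 36351 genes under 36109 names. The submitters' notes name Cell Ranger 6.1.2 and the file headers 7.1.0, so whether intron reads were counted is not given in the sources used here. The study's Seurat 4 clusters were not used.

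The members, gene lists and comparisons were chosen with earlier results of these data known, and the 1.5% line and the sets without haemoglobin or marker-poor cells after seeing the data. Counts of rows with the same name were summed. Stage levels are summed counts per 1000000 UMIs (CPM) outside the 12 mt- names, for genes of at least 50 CPM, with a 2-fold threshold. Named genes were the 10 largest and 10 smallest ratios without lists of other cells or unnamed models, list members past 2-fold or most abundant, the 10 largest and 10 smallest class ratios of 1 sign in every library, and the 15 most variable genes. Class sums were tested with edgeR 4.0.16 in R 4.3.3 (quasi-likelihood, library as block), checked on simulated counts. Thinning drew 2500 UMIs per cell with a fixed seed. No doublet caller was run, and the set without CMs over 2 times the median UMIs served instead. Other scalings, filters, limits and DESeq2 1.42.0 were the alternatives. Python 3.11.15, numpy 2.4.6, scipy 1.17.1 and pandas 2.3.3 were used.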

Additional observations from a re-analysis of the deposited data

Results flagged for a closer look

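Barcodes outside the depth limits also met the marker limits, and the comparisons above do not use them. With at least 1000 but under 2500 UMIs there were 68 at initiation, and 209, 495 and 333 in the next libraries, in which myl7 and cmlc1 took a median of 4.93%, 5.15%, 4.20% and 4.85% of UMIs. With at least 2500 UMIs but under 800 genes there were 62, 130, 391 and 585, with a median of 0.254%, 5.71%, 2.44% and 7.14%. At maturation the latter outnumber the 283 selected CMs. Among the deep barcodes that met all marker limits there, the minimum of 800 genes thus left out more than it kept.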

How the results depend on the processing

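No paired analysis was possible because each stage is 1 library, and in the class tests the library itself is the block. Depth limits the single-cell shares: thinning to 5000 UMIs would leave out 27, 53, 265 and 56 CMs. Of the 66 genes with a stage ratio, 60 were past 2-fold and 37 of these had 1 direction under every alternative run. The set without CMs over 2 times the median UMIs moved no count by more than 1.5 times. The causes of the differences below were not tested.

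Without all mitochondrial names in the total, 64 genes were higher and 326 lower at establishment than at initiation, and 452 and 43 at expansion than at establishment. TMM gave 244 and 96, and 79 and 241. Without a minimum level, the counts were 5297 higher and 6002 lower for maturation over initiation, 3795 and 5554 for establishment over initiation, 6778 and 3273 for expansion over establishment, and 4109 and 3925 for maturation over expansion. With 30 or more UMIs of the 4 genes, 105 were lower at establishment than initiation and 58 higher at expansion than establishment, and without CMs holding 3 UMIs of other cell lists 292 and 308. The following sets were added after seeing the data. Without haemoglobin-rich CMs, 174 genes were lower at expansion than establishment, and without marker-poor CMs 98 were higher. In the titin-rich CMs maturation over initiation gave 98 and 297, maturation over expansion 89 and 172, and 41 were higher at expansion than establishment. In the titin-poor CMs the counts were 444 and 256 (168 and 327 without their haemoglobin-rich CMs), 303 and 263 for establishment over initiation, and 764 higher at expansion than establishment.

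The number of CMs at expansion was 328 when all mitochondrial names counted toward the limit and 301 with at least 5000 UMIs. It was 162 at maturation with 30 UMIs of the 4 genes, and 172, 208 and 182 at initiation, establishment and maturation without CMs holding UMIs of other cell lists.

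In the pacemaker comparison, DESeq2 called 31 higher and 66 lower, no filter 296 and 106, no library block 0 and 0 (184 and 192 unadjusted in edgeR), a minimum of 5000 UMIs 13 lower, and titin-rich cells in both classes 43 and 79. Without haemoglobin-rich and marker-poor cells 63 were lower. Leaving out 1 library gave 4 to 608 higher and 1 to 429 lower. In the acta2 and tagln comparison, DESeq2 called 828 higher, no filter 1311 and no block 222. A minimum of 5000 UMIs gave 181 and 465, cells with 1% of independent markers 211 and 166, and leaving out 1 library 38 to 1093 and 316 to 924.

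In titin-rich CMs the log2 ratio of maturation over initiation changed sign for fosab (0.0025) and fn1b (-1.07). In titin-poor CMs it changed sign for obscnb (0.12), slc8a1a (1.58), cacna1c (0.024), ryr2b (0.87), kcnq1 (1.07), pygmb (0.73), pdk2a (0.22), vegfaa (0.13), nppa (0.50), nppb (2.28), fhl2b (0.26), mef2d (0.30), igf1ra (0.57), jag2b (1.42), fosab (0.48), egr1 (0.77), socs3b (1.66), bag3 (0.91), fkbp4 (0.61), alcama (0.64), cdh2 (0.67) and nrap (1.25). Without their haemoglobin-rich CMs the titin-poor ratios of obscnb, cacna1c, ryr2b, pygmb, pdk2a, vegfaa, nppa, fhl2b, igf1ra, egr1 and alcama were below 0 again. Of these, egr1 (-0.03), igf1ra (-0.10), ryr2b (-0.21) and pygmb (-0.22) lay within the 0.26 by which the total moves titin-poor ratios. They have no firm direction.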
